A study of Capsicum annuum and Capsicum annuum
Solanum lycopersicum with 48 samples.

Results

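TKN1 (Solyc04g077210), TKN2 (Solyc02g081120), TKN3 (Solyc05g005090) and TKN4 (Solyc01g100510) are KNOX homeobox transcription factor (TF) genes of tomato. They were found by their gene identifiers and make up 4 of the 33604 tomato genes, and of the 63692 genes of tomato and pepper, in the deposited expression tables. Tomato (Solanum lycopersicum var. M82) and pepper (Capsicum annuum var. Big Dipper) seedlings were wedge grafted to follow junction formation in compatible and incompatible combinations. Each library came from the junction of 1 plant, and each group had 4 libraries. The heterografts were pepper:tomato (pepper scion on tomato stock) and tomato:pepper (tomato scion on pepper stock), sampled at 1, 3 and 5 days after grafting (DAG). The tomato self-graft, sampled on the same days, gave the compatible combination, so that 9 groups held tomato tissue. Under the paper's grafting protocol, plants stood in darkness for 3 days and were lit again from day 4. Light and time therefore cannot be told apart where 5 DAG is set against the earlier days. The pepper self-graft is used only for the pepper gene described near the end. Scion and stock were harvested as 1 piece, so the tomato tissue was the stock in pepper:tomato, the scion in tomato:pepper, and both in the self-graft. The paper reports that some reads aligned to the wrong species, and their part in the heterograft values was not tested.

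KNOX proteins belong to the TALE class of homeodomain TFs, which pair with BELL homeodomain partners. Class I KNOX genes are active in the shoot apical meristem and keep its cells undifferentiated, and in Arabidopsis KNAT1 also acts in the vascular cambium, the cell layer that produces xylem and phloem. In tomato, KNOX genes are best known for their part in the compound leaf, and TKN2 and TKN4 also influence chloroplast development in fruit. TKN1 is the gene listed as KNAT1 in the study, and TKN2, also called LeT6, is the tomato counterpart of Arabidopsis SHOOT MERISTEMLESS.

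Expression was given as FPKM, fragment counts scaled to transcript length and to the fragments mapped, with 1 value per group. From these single values no spread between replicates, SD or test could be computed, and the authors' own columns of fold changes and q-values were not used. The sequencing depth behind a value is unknown, and each difference below is a description of 9 group values. Since a junction is a mixture of tissues, fewer cells of a type and less RNA per cell cannot be told apart.

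A single FPKM total was shared by tomato and pepper genes in the heterografts, and the tomato part of it differed widely. At 1, 3 and 5 DAG, tomato genes held 17.9%, 51.7% and 23.1% of the summed FPKM of pepper:tomato, and 59.5%, 29.7% and 49.2% for tomato:pepper. Between 1 and 3 DAG the tomato share thus moved in opposite directions in both heterografts, and at 3 DAG each stood nearer to the other graft's shares at 1 and 5 DAG than to its own. Whether the 3 DAG labels of the heterografts are exchanged was not tested, and changes, differences and ratios of the KNOX genes that use these groups are given as labelled and with their 3 DAG values exchanged. For a level, the exchange moves the 3 DAG value to the other heterograft. Levels are also given divided by the median FPKM of 17732 tomato genes, those that averaged 1 FPKM or more over the 9 groups. Over the heterograft groups this median rose with the tomato share, but not in proportion. In pepper:tomato it was 3.64 FPKM at 1 DAG and 7.05 FPKM at 3 DAG, beside shares of 17.9% and 51.7%. Division by the median therefore differs from rescaling the tomato genes to the same total. The self-graft was normalized in a table of its own. Its FPKM is printed and plotted next to that of the heterografts, but levels are compared across the tables only over the median tomato gene, after rescaling to the same tomato total, or as ratios between KNOX genes.

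TKN1 was the most highly expressed of the KNOX genes in every group, and the order TKN1, TKN2, TKN4, TKN3 held in all 9 groups. At 1, 3 and 5 DAG, TKN1 had 11.6, 27.2 and 16.4 FPKM in pepper:tomato. The values were 40.6, 25.6 and 29.4 FPKM in tomato:pepper and 46.8, 54.4 and 54.9 FPKM in the tomato self-graft. Among the heterografts, tomato:pepper at 1 DAG was highest and pepper:tomato at 1 DAG lowest. Division by the median tomato gene drew the groups together. TKN1 stood at 3.20, 3.86 and 3.93 times the median gene on these days for pepper:tomato, at 5.00, 4.81 and 4.41 times for tomato:pepper, and at 3.79, 4.30 and 4.48 times for the self-graft. Its highest level was 1.56 times its lowest on that scale. TKN1 made up 52.5% to 78.1% of the summed FPKM of the KNOX genes.

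TKN2, the counterpart of a gene that maintains the shoot meristem, varied most. At 1, 3 and 5 DAG it had 4.31, 17.6 and 3.46 FPKM for pepper:tomato. In tomato:pepper it had 25.6, 3.76 and 10.1 FPKM, and in the tomato self-graft 29.7, 34.8 and 19.2 FPKM. TKN2 was thus high at 3 DAG in pepper:tomato, where tomato:pepper was low, and low at 1 and 5 DAG, where tomato:pepper was higher. As a multiple of the median tomato gene it had 1.18, 2.49 and 0.829 in the junctions with a pepper scion, 3.15, 0.708 and 1.51 in those with a pepper stock, and 2.41, 2.75 and 1.56 in the self-graft. The highest of these 9 levels was 4.45 times the lowest, and as labelled both extremes fell in tomato:pepper. With 3 DAG exchanged the lowest, 0.708, belongs to pepper:tomato.

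TKN4 and TKN3 were weakly expressed, and neither reached the level of the median tomato gene in any group. On days 1, 3 and 5 pepper:tomato had 2.92, 2.97 and 2.92 FPKM of TKN4, tomato:pepper had 2.90, 2.56 and 2.50 FPKM, and the self-graft had 9.42, 6.45 and 6.28 FPKM. TKN4 was therefore nearly level over time in both heterografts in FPKM. Over the median tomato gene, pepper:tomato had 0.803, 0.421 and 0.700, tomato:pepper had 0.357, 0.482 and 0.375, and the self-graft had 0.764, 0.509 and 0.513. On that scale pepper:tomato at 1 DAG was the highest group and tomato:pepper at 1 DAG the lowest. For TKN3, pepper:tomato had 0.570, 1.62 and 0.482 FPKM, tomato:pepper had 2.20, 0.860 and 1.08 FPKM, and the self-graft had 3.25, 3.30 and 3.49 FPKM. Its heterograft values thus lay between 0.482 and 2.20 FPKM, and its level relative to the median tomato gene ran from 0.116 in pepper:tomato at 5 DAG to 0.285 in the self-graft at 5 DAG.

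**Figure D1:**
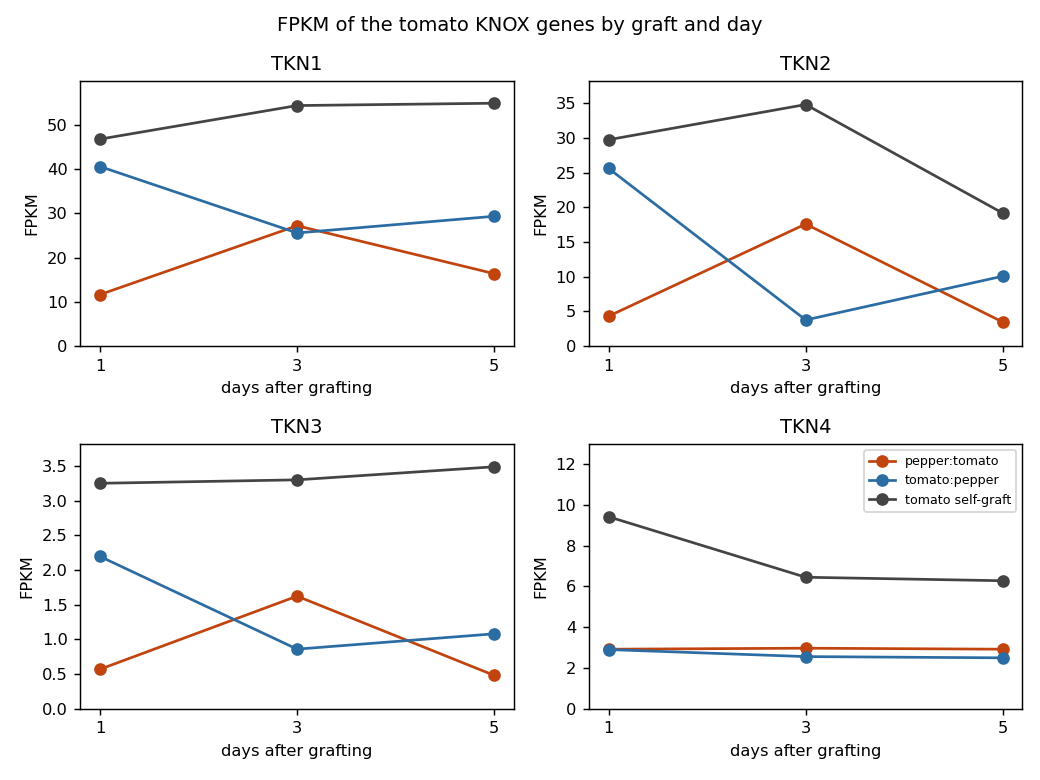
FPKM of TKN1, TKN2, TKN3 and TKN4 (vertical axes from 0, each panel with its own scale) at 1, 3 and 5 days after grafting. Each point is the single value of a group of 4 libraries. TKN2 reads 17.6 in pepper:tomato and 3.76 in tomato:pepper at 3 DAG, the reverse of their order at 1 and 5 DAG. The self-graft values come from a table normalized on its own.

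**Figure D2:**
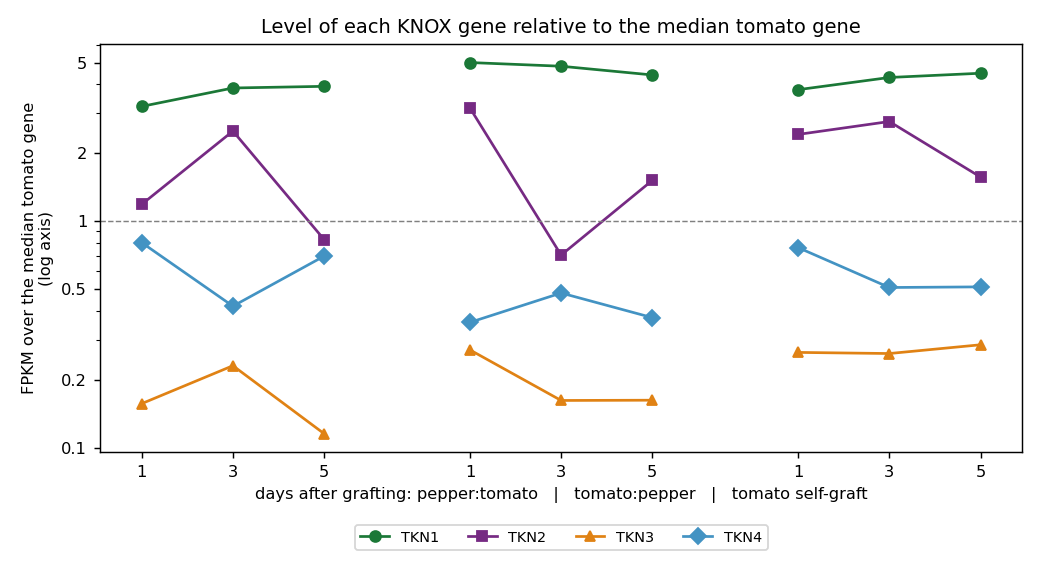
The same genes as FPKM divided by the median tomato gene of the group, on a log axis, with the dashed line at the median gene. TKN1 stays between 3.20 and 5.00, TKN2 spans 0.708 to 3.15, and TKN3 and TKN4 lie below the line in all 9 groups.

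Changes over time were taken as the log2 ratio of FPKM + 1, which understates the changes of weakly expressed genes such as TKN3. They were set beside all tomato genes with 1 FPKM or more on at least 1 day of the graft, a filter that all 4 KNOX genes passed in each graft. TKN3 passed it in pepper:tomato only through 3 DAG, the day of its highest value there, and its changes in that graft are given as values. In the tomato self-graft, no KNOX gene differed by 2-fold or more between any days in FPKM + 1. TKN4 reached -1.09 on the log2 scale at 3 over 1 DAG when FPKM was rescaled to the same tomato total. After that rescaling 22.3% of tomato genes were lower and 3.13% higher by 2-fold or more, and the median of all was -0.51. Without rescaling, 12.2% of the 19271 tomato genes of the self-graft were higher and 4.84% lower by 2-fold or more at 3 than at 1 DAG. At 5 over 3 DAG these shares were 3.16% and 7.94%, and at 5 over 1 DAG 6.64% and 5.8%. TKN1 differed by 0.21 on the log2 scale at 3 over 1 DAG, with 0.01 at 5 over 3 DAG. TKN2 had its lowest self-graft value at 5 DAG, its log2 change being 0.22 at 3 over 1 DAG, then -0.83 at 5 over 3 DAG. TKN4 was highest at 1 DAG, its change being -0.48 at 3 over 1 DAG, then -0.03 at 5 over 3 DAG. TKN3 stayed within 0.08 of its 1 DAG value on the log2 scale. The signs of TKN1 and TKN2 at 3 over 1 DAG depended on the scale. After rescaling to the same tomato total they had -0.47 and -0.46, close to the median of -0.51 for all tomato genes.

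In pepper:tomato, TKN1 and TKN2 were 2-fold or more higher at 3 than at 1 DAG, as were 42.8% of the 17990 tomato genes compared, while 7.39% were lower. The log2 change was 1.16 for TKN1, 1.81 for TKN2, 0.74 for TKN3 and 0.02 for TKN4, and the median of all tomato genes was 0.77. At 5 over 3 DAG, TKN2 alone of the KNOX genes was lower by 2-fold or more, with a log2 change of -2.06, beside 39.1% of all tomato genes, while 9.67% were higher. TKN1 had -0.70, TKN3 -0.82 and TKN4 -0.02, against a median of -0.68. Between 1 and 5 DAG no KNOX gene reached 2-fold, with log2 changes between -0.25 for TKN2 and 0.46 for TKN1. At that interval 10.8% of all tomato genes were higher and 4.34% lower by 2-fold or more.

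Over the median tomato gene, TKN2 of pepper:tomato still differed by 2-fold or more, with a log2 change of 1.07 at 3 over 1 DAG, then -1.59 at 5 over 3 DAG. On that scale 26.5% of tomato genes were higher and 23.9% lower by 2-fold or more at 3 over 1 DAG, and 21.5% were higher and 24.3% lower at 5 over 3 DAG. The log2 change of TKN1 at 3 over 1 DAG was 0.27 there, and that of TKN4 -0.93. Rescaling to the same tomato total brought TKN2 under 2-fold, with -0.0066 at 3 over 1 DAG and -0.66 at 5 over 3 DAG. It turned TKN1 to -0.79 and 0.89, and TKN4 passed 2-fold with -1.74 and 1.38. The median of all tomato genes moved as well, to -0.86 and 0.67. After rescaling 45.7% of tomato genes were lower and 9.63% higher by 2-fold or more at 3 over 1 DAG, and 9.1% and 38.8% at 5 over 3 DAG. TKN2 thus stayed above the median change at 3 over 1 DAG and below it at 5 over 3 DAG. Once the 3 DAG groups were exchanged, TKN2 over the median tomato gene gave -0.74 at 3 over 1 DAG, then 0.23 at 5 over 3 DAG. Both directions turned on that scale. In FPKM + 1 the exchange gave -0.16 and -0.09, so that only the first direction turned.

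In tomato:pepper, TKN2 was the only KNOX gene that differed by 2-fold or more between days in FPKM, and did so over each interval. The log2 change was -2.48 at 3 over 1 DAG, where 19.4% of the 17846 tomato genes were lower and 6.12% higher by 2-fold or more and 2.12% lay below TKN2. It was 1.22 at 5 over 3 DAG, where 6.25% of tomato genes were higher and 3.48% lower by 2-fold or more and 3.77% lay above TKN2. At 5 over 1 DAG, which does not use the 3 DAG group, TKN2 had -1.26, and 11.6% of tomato genes were lower and 5.0% higher by 2-fold or more. Levels over the median tomato gene gave -2.15, 1.09 and -1.06 for these intervals. The shares of tomato genes past 2-fold in the direction of TKN2 were 9.91%, 7.04% and 9.43%, and in the other direction 12.6%, 7.69% and 10.6%. Centring on the median change of all tomato genes brought TKN2 just under 2-fold, to 0.96 at 5 over 3 DAG and -0.998 at 5 over 1 DAG, and rescaling gave -0.72 at 5 over 1 DAG. With 3 DAG exchanged, the first interval gave -0.34 and the second -0.72 over the median tomato gene, so TKN2 no longer had its lowest value at 3 DAG. The other KNOX genes of tomato:pepper had log2 changes of FPKM + 1 between -0.78 for TKN3 at 3 over 1 DAG and 0.19 for TKN1 at 5 over 3 DAG.

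**Figure D3:**
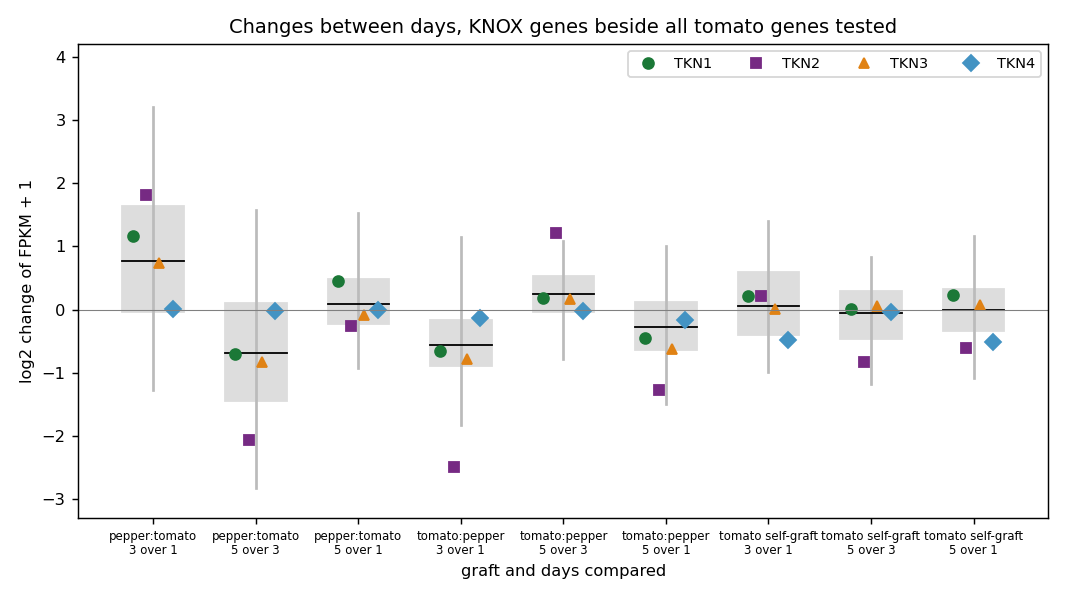
Log2 changes of FPKM + 1 between days for the 4 KNOX genes (symbols) in pepper:tomato, tomato:pepper and the tomato self-graft. Grey boxes span the 25th to the 75th percentile of all tomato genes compared, grey lines the 5th to the 95th, and black bars mark the median. TKN2 lies below the grey line at 3 over 1 DAG in tomato:pepper (-2.48) and above it at 5 over 3 DAG (1.22), while no KNOX gene reaches 1 or -1 in the self-graft.

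The heterografts stood in the same table and could be compared directly at each day. In FPKM, TKN1 and TKN2 were at 1 DAG lower by 2-fold or more in pepper:tomato than in the tomato:pepper junctions, with log2 ratios of -1.72 and -2.32. TKN3 had -1.03, given as a value because at 1 DAG it reached 1 FPKM only in tomato:pepper, and centring brought it to -0.11. However, 46.4% of the 18661 tomato genes compared were lower by 2-fold or more, and the median ratio of all genes was -0.91. TKN4 had a ratio of 0.01 at 1 DAG, where 3.09% of tomato genes were higher by 2-fold or more. At 3 DAG, TKN2 had a ratio of 1.96, and 18.8% of all tomato genes were higher and 9.79% lower by 2-fold or more. At 5 DAG TKN2 had -1.31, and 2.33% of all tomato genes were higher and 22.7% lower. The other KNOX genes lay between 0.09 and 0.50 at 3 DAG and between -0.80 and 0.16 at 5 DAG.

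Relative to the median tomato gene, TKN2 and TKN4 differed in opposite directions between the heterografts at 1 DAG. The log2 ratio of pepper:tomato over tomato:pepper was -1.41 for TKN2 and 1.17 for TKN4, where 20.7% of tomato genes were lower and 19.1% higher by 2-fold or more. At 5 DAG the ratios were -0.87 for TKN2 and 0.90 for TKN4, and neither passed 2-fold. Under the other scalings 2-fold did not hold at 1 DAG for TKN2 after rescaling (-0.59) or for TKN4 after centring (0.92). Rescaling gave TKN4 1.70 at 1 DAG and 1.04 at 5 DAG, past 2-fold on both days. After rescaling 35.2% of tomato genes were higher and 7.91% lower by 2-fold or more at 1 DAG, and 13.6% and 5.55% at 5 DAG. Over the median tomato gene, TKN1 had -0.64 and -0.17 and TKN3 -0.79 and -0.49 at 1 and 5 DAG. At 3 DAG as labelled, TKN2 was higher in pepper:tomato by 1.82, where 14.4% of tomato genes were higher by 2-fold or more and 16.5% lower, and TKN4 had -0.19. Exchanging the 3 DAG groups turns these signs, so that TKN2 would be lower in pepper:tomato on all 3 days.

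Ratios between KNOX genes of the same group carry neither the tomato share nor the table's scale. At 1, 3 and 5 DAG the TKN2 to TKN1 ratio was 0.370, 0.646 and 0.211 for pepper:tomato. It was 0.630, 0.147 and 0.343 for tomato:pepper and 0.635, 0.640 and 0.349 in the tomato self-graft. As labelled, pepper:tomato at 3 DAG had the ratio of the self-graft and tomato:pepper at 3 DAG the lowest of all groups. With 3 DAG exchanged, tomato:pepper would read 0.630, 0.646 and 0.343, close to the self-graft on each day, and pepper:tomato would read 0.370, 0.147 and 0.211, below the self-graft on each day. At 1 and 5 DAG, which do not use the 3 DAG groups, the ratio was lower in pepper:tomato than in tomato:pepper and the self-graft, and the values of tomato:pepper and the self-graft lay side by side.

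The TKN4 to TKN1 ratio had the opposite order between the heterografts at 1 and 5 DAG. Pepper:tomato had 0.251, 0.109 and 0.178, tomato:pepper had 0.0715, 0.1 and 0.0851, and the self-graft had 0.201, 0.119 and 0.114. Pepper:tomato exceeded tomato:pepper at 1 and 5 DAG, and at 3 DAG their ratios nearly coincided, so that exchange of the 3 DAG groups hardly moved the pattern. The TKN3 to TKN1 ratio stayed between 0.0294 and 0.0694, with its lowest value in pepper:tomato at 5 DAG.

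**Figure D4:**
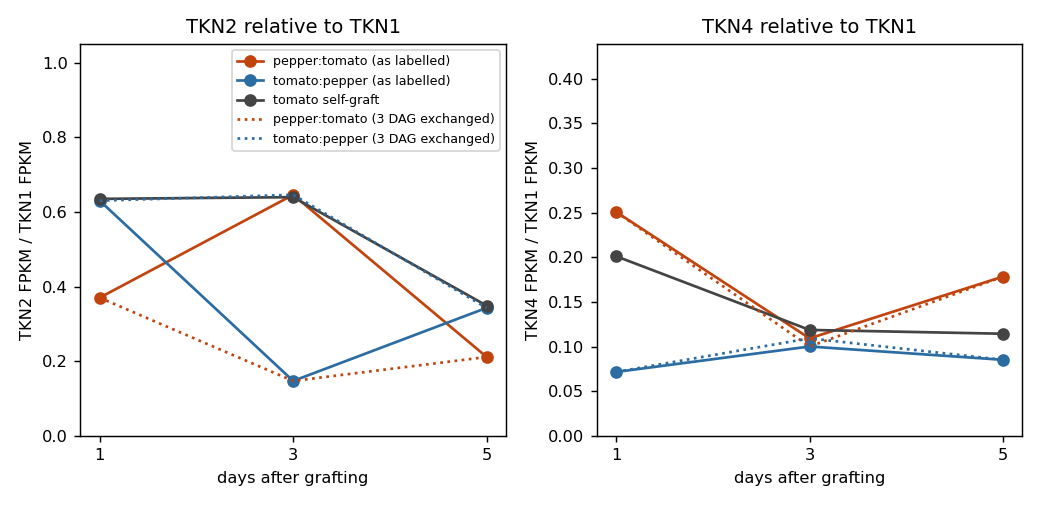
Ratio of TKN2 to TKN1 FPKM (left) and of TKN4 to TKN1 FPKM (right) by days after grafting, for each graft as labelled (solid lines with points) and with the heterograft values at 3 DAG exchanged (dotted lines). At 1 and 5 DAG the TKN2 ratio of tomato:pepper (0.630 and 0.343) lies on that of the self-graft (0.635 and 0.349), and pepper:tomato (0.370 and 0.211) lies below.

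Vascular regulators of the junction were read alongside the KNOX genes from 2 lists put together from genes that the study names, 18 cambium regulators and 6 xylem differentiation genes. WOX4, a homeobox TF that maintains cambium cells, showed 10.5, 2.67 and 16.8 FPKM on days 1, 3 and 5 of pepper:tomato, 8.19, 18.0 and 13.2 FPKM for tomato:pepper, and 15.1, 19.9 and 20.8 FPKM for the self-graft. Among the heterografts WOX4 was thus lowest in pepper:tomato at 3 DAG as labelled, where TKN2 had 17.6 FPKM, its highest level in that graft, and with 3 DAG exchanged both values belong to tomato:pepper. On levels over the median tomato gene, 15 cambium regulators had a mean of 1 FPKM or more. At 1 DAG 9 of them were higher by 2-fold or more in pepper:tomato than in the other heterograft and 0 were lower. The list median was 1.52, and 19.1% of all tomato genes were higher and 20.7% lower. At 3 DAG as labelled 0 were higher and 12 lower, with a median of -2.26, beside 14.4% and 16.5% of all tomato genes. Exchange of the groups gives 12 higher and 0 lower, beside 16.5% and 14.4%. At 5 DAG 9 were higher and 0 lower, with a median of 1.08, beside 10.3% of all tomato genes in each direction. The 9 genes at 1 DAG included WOX4, both PXY receptor kinase genes, 3 TMO6 genes, MOL1, HCA2 and 1 LHW gene. That LHW gene, Solyc06g074110, had 0.222 FPKM in tomato:pepper at 1 DAG. At 3 DAG as labelled pepper:tomato had 0.242 FPKM of it, 0.809 and 0.267 of the PXY genes, 0.170 of TMO6 Solyc06g005130 and 0.508 of THOM1. THOM1 had 0.803 FPKM in tomato:pepper at 5 DAG. The counts include these genes, which met the mean through groups where they were higher, and so rest partly on the filter. At each day the TKN2 ratio had the opposite sign to the list median, being -1.41, 1.82 and -0.87 on the same scale. TKN3 also had the opposite sign at each day, with -0.79, 0.51 and -0.49. TKN4 had 1.17, -0.19 and 0.90, the same sign as the list. TKN1 had -0.64, -0.32 and -0.17, with the sign of the list at 3 DAG only. The part of cambium cell number in these KNOX differences was not tested.

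**Figure D5:**
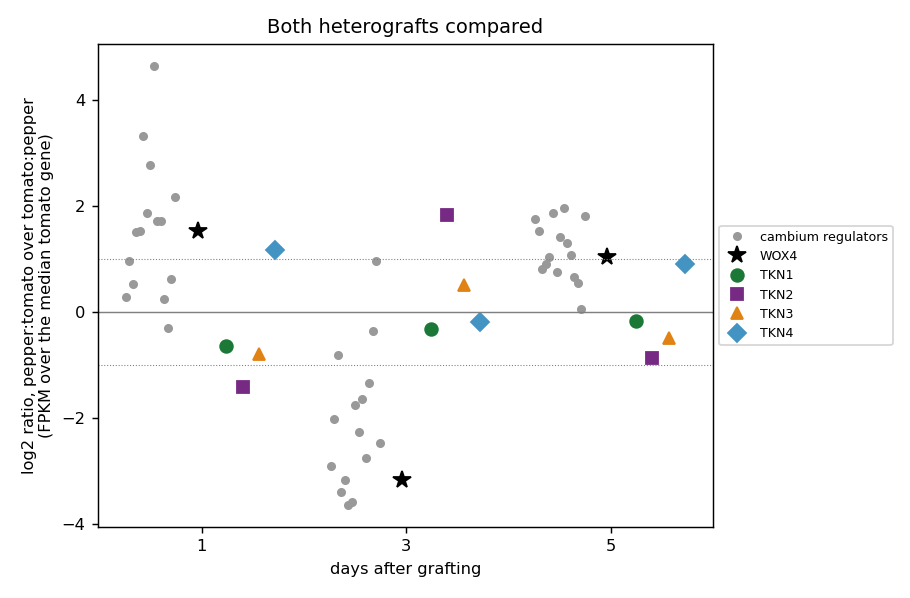
Log2 ratio of pepper:tomato over tomato:pepper at 1, 3 and 5 days after grafting, from FPKM over the median tomato gene, for the 4 KNOX genes (coloured symbols), WOX4 (star) and the 15 cambium regulators that averaged 1 FPKM or more (grey points, WOX4 among them). Some grey points rest on values under 1 FPKM in a heterograft. Dotted lines mark 2-fold. TKN2 lies at -1.41, 1.82 and -0.87, on the other side of 0 from the medians of the cambium regulators, 1.52, -2.26 and 1.08. TKN3, at -0.79, 0.51 and -0.49, also lies on the other side at each day.

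In the tomato self-graft, 16 cambium regulators passed the filter. THOM1, ER, the TMO6 gene Solyc06g005130 and the LHW gene Solyc06g074110 did so only through the days on which they were higher. The counts below include THOM1, ER and this TMO6 gene and so rest partly on the filter. At 3 over 1 DAG 4 were higher and 2 lower by 2-fold or more, beside 12.2% and 4.84% of all tomato genes. At 5 over 3 DAG 2 were higher and 0 lower, beside 3.16% and 7.94%, and at 5 over 1 DAG 5 were higher and 1 lower, beside 6.64% and 5.8%. The KNOX genes had 0 in either direction at each interval. The list medians were -0.18, 0.34 and 0.51, and those of all tomato genes 0.06, -0.05 and -0.01. TDIF, whose peptide signals to the cambium, had 119, 290 and 283 FPKM at 1, 3 and 5 DAG. Of the LBD4 genes, which encode LOB-domain TFs, 2 had 2.17, 11.8 and 8.86 FPKM (Solyc02g069440) and 2.54, 8.85 and 11.3 FPKM (Solyc11g045530). These genes and THOM1, with 0.482, 2.89 and 4.04 FPKM, had their lowest level at 1 DAG, the day at which TKN4 was highest. HCA2, a DOF TF gene that promotes cambium formation in Arabidopsis, had 6.26, 1.56 and 2.25 FPKM, and the TMO6 gene Solyc06g005130 had 2.26, 0.597 and 1.02 FPKM. Both were highest at 1 DAG, as TKN4 was. MOL1, a receptor-like kinase gene that restrains the cambium in Arabidopsis, had 7.52, 5.74 and 14.1 FPKM, and the receptor kinase gene ER had 0.790, 0.675 and 2.97 FPKM, and so both were highest at 5 DAG, when TKN2 was lowest.

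The xylem differentiation genes were barely expressed. Of the 6, 3 reached 1 FPKM in pepper:tomato, 2 in tomato:pepper and 1 in the self-graft, each only through days on which it was high, so no count of changes is read from this list. NST1, a NAC TF gene of secondary wall formation, had 0.197, 0.864 and 7.50 FPKM on days 1, 3 and 5 of pepper:tomato, 0.954, 5.53 and 6.25 FPKM for tomato:pepper, and 0.911, 2.90 and 5.51 FPKM for the self-graft. It was lowest at 1 DAG in each graft as labelled, and with 3 DAG exchanged the lowest value of tomato:pepper is 0.864 at 3 DAG.

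Likeness of pattern was measured as Pearson's r over the 9 groups, on FPKM rescaled so that the tomato genes of a group sum to the same total, among 21423 tomato genes. The 9 points share libraries between genes and the tomato share of the tables, so r is given as a description. The gene most like TKN3 was Solyc06g035450 (r = 0.987), which also ranked 1st on levels over the median tomato gene. Solyc05g051730 was most like TKN2 (r = 0.969) and ranked 5th on the median scale (r = 0.962). Its FPKM on days 1, 3 and 5 was 2.58, 21.9 and 1.11 for pepper:tomato, 61.2, 0 (as listed) and 10.9 for tomato:pepper, and 42.9, 36.2 and 13.5 for the self-graft, and so it was high at 3 DAG in pepper:tomato and at 1 DAG in tomato:pepper, as TKN2 was. Solyc03g119400 was most like TKN1 (r = 0.959), but ranked 6648th on the median scale (r = 0.227), so that the likeness to TKN1 did not hold on both scales. Solyc03g117540 was most like TKN4 (r = 0.992) and ranked 30th on the median scale (r = 0.933), with 0.0445 to 1.06 FPKM over the groups. Among the KNOX genes themselves, TKN2 and TKN3 had r = 0.70 on rescaled FPKM and 0.82 on levels over the median tomato gene. TKN1 and TKN2 had -0.12 and 0.11, and TKN1 and TKN4 had 0.63 and -0.77, so the sign of both depended on the scale.

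CaKNAT1 (CA04g16610) is the pepper gene that the study lists under the same name as TKN1, and both could be read in the same heterograft libraries. On days 1, 3 and 5 CaKNAT1 had 69.9, 24.2 and 45.0 FPKM for pepper:tomato, 23.8, 32.7 and 29.7 FPKM for tomato:pepper, and 86.3, 63.5 and 77.5 FPKM for the pepper self-graft. The ratio of TKN1 to CaKNAT1 was 0.167, 1.13 and 0.364 on these days for pepper:tomato, and 1.71, 0.783 and 0.990 for tomato:pepper. The ratio of summed tomato to summed pepper FPKM was 0.219, 1.07 and 0.300 for pepper:tomato, and 1.47, 0.422 and 0.968 for tomato:pepper, and so had the same order of days. Exchange of 3 DAG moves 1.13 and its ratio of sums, 1.07, to tomato:pepper and 0.783 and 0.422 to pepper:tomato. Set against the ratio of the median tomato to the median pepper gene, TKN1 over CaKNAT1 lay between 0.704 in pepper:tomato at 1 DAG and 1.47 in tomato:pepper at 3 DAG. CaKNAT1 itself stood at 3.17 to 4.55 times the median pepper gene over the 9 groups with pepper tissue, a range of 1.44-fold, beside 1.56-fold for TKN1 among tomato genes.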

How the data were processed

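Graft junctions of 48 plants (12 groups of 4 libraries, poly(A) RNA, directional libraries) were sequenced by the authors. Reads were cleaned, aligned with HISAT2 and quantified with Cufflinks (versions not given in the sources used here). Self-graft reads were aligned to their own genome (tomato Heinz with ITAG gene models, or pepper CM334) and heterograft reads to both genomes joined. The deposited tables hold 1 FPKM value per gene and group, made by the authors. The number of columns matching no group was 0. The remaining columns hold the authors' log2 fold changes and q-values between groups and were not used. Groups were taken from the titles and treatments, although the organism given for the tomato self-graft samples is pepper.

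With 1 value per group, changes were computed as log2 ratios of FPKM + 1 (Python 3.11.15, pandas 2.3.3, numpy 2.4.6, matplotlib 3.10.9) without a test, among tomato genes with 1 FPKM or more in at least 1 group compared, and 2-fold served as the limit for counts. A second scale, chosen after seeing the data, divided FPKM by the median of 17732 tomato genes, with no pseudocount. In the likeness of patterns, 1 was added to rescaled FPKM and 0.1 to levels over the median gene before taking log2. The calculations were tested on simulated data. The members and lists were chosen with earlier results of these data known. The genes named are the members, CaKNAT1, WOX4 and the list genes at 2-fold or more in the tomato self-graft, and the gene nearest to each member by r. Alternatives were other pseudocounts and filters, rescaling over tomato genes, centring on the median gene, and exchange of the 3 DAG heterograft groups. Protein and promoter sequences of the members are not used here.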

Additional observations from a re-analysis of the deposited data

Results flagged for a closer look

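Between 1 and 3 DAG, TKN2 moved one way in one heterograft and the other way in the other, being higher at 3 DAG in pepper:tomato (17.6 against 4.31 FPKM) and lower in tomato:pepper (3.76 against 25.6 FPKM). The change in pepper:tomato minus that in tomato:pepper was 4.29 on the log2 scale of FPKM + 1. Between 3 and 5 DAG the directions were again opposite, and this difference was -3.28. With 1 value per group, neither difference was tested. Both rest on the 3 DAG groups, and with these exchanged TKN2 changed by -0.16 in pepper:tomato and -0.52 in tomato:pepper at 3 over 1 DAG, and by -0.09 and -0.75 at 5 over 3 DAG.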

How the results depend on the processing

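Over the alternatives, 21 of 80 medians over the KNOX genes, 86 of 320 values of single KNOX genes and 0 of 6 TKN1 to CaKNAT1 ratios had the other sign than the reported value, and of the 79 values for single-gene changes reported at 2-fold or more, 45 were under 2-fold or in the other direction. The medians at 3 over 1 DAG in pepper:tomato (0.95) and at 5 over 3 DAG (-0.76) depended on the scale. After rescaling over tomato genes they became -0.58 and 0.41, beside -0.86 and 0.67 for the median of all tomato genes. Centring gave 0.18 and -0.080. With 3 DAG exchanged, the KNOX median at 3 over 1 DAG was 0.052, and -0.86 with rescaling, -0.42 with centring and -0.35 over the median tomato gene. At 5 over 3 DAG the exchange gave 0.44 with rescaling, 0.16 with centring and -0.033 over the median tomato gene. The self-graft median at 3 over 1 DAG (0.11) became -0.49 after rescaling, beside -0.51 for all tomato genes. For pepper:tomato over tomato:pepper at 1 DAG (-1.37), rescaling gave 0.075, centring -0.46 and levels over the median tomato gene -0.71. At 3 DAG (0.33) exchange gave -0.33, and at 5 DAG (-0.65) rescaling gave -0.0029.

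Rescaling turned TKN1 (-0.79, and -0.11 with 3 DAG exchanged) and TKN2 (-0.0066) at 3 over 1 DAG in pepper:tomato, and TKN1 (0.15) and TKN3 (0.0040) between the heterografts at 1 DAG. As labelled, the rescaled median of all tomato genes was itself -0.86 in the first of these comparisons and 0.62 in the second. After rescaling, TKN1 also changed sign at 5 over 3 DAG in pepper:tomato (0.89, reported -0.70) and, with TKN2, at 3 over 1 DAG in the self-graft (-0.47 and -0.46), where TKN4 reached -1.09. The rescaled median of all tomato genes was 0.67 in the former and -0.51 in the latter, where 22.3% were lower by 2-fold or more. Centring ended 2-fold for TKN2 in tomato:pepper at 5 over 3 DAG (0.96) and 5 over 1 DAG (-0.998), as rescaling did at 5 over 1 DAG (-0.72), and a pseudocount of 5 FPKM did at 5 over 3 DAG (0.78). Between the heterografts TKN2 reached 2-fold at 5 DAG neither with rescaling (-0.54), centring (-0.76) nor that pseudocount (-0.83), and rescaling gave -0.59 at 1 DAG. Besides, the exchange of 3 DAG turned changes of TKN2 that were 2-fold or more as labelled. At 3 over 1 DAG in pepper:tomato it gave -0.16, and -1.33 with rescaling, -0.63 with centring and -0.74 over the median tomato gene. At 5 over 3 DAG in pepper:tomato, the 3 scalings gave 0.67, 0.28 and 0.23. In tomato:pepper at 5 over 3 DAG the exchange gave -0.75, and with the scalings -0.12, -0.62 and -0.72. Between the heterografts at 3 DAG it gave -1.96, and -1.33, -1.56 and -1.82.

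No paired analysis was possible because the tables hold 1 value per group, and for the same reason leaving out replicates and a replicate block were not run. Depth is unknown, which limits TKN3 most.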
